A study of Mus musculus with 6 samples.

Results

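The 10 genes described here mark GABAergic interneurons, the local inhibitory neurons of the brain: Gad1, Gad2, Slc32a1, Lhx6, Pvalb, Reln, Sst, Npy, Cck and Vip. They were taken by symbol from the 55450 genes counted in each library, and all 10 passed the filter on low counts that left 21237 genes for the test. Whole brains of TRMT1L KO and WT mice gave 3 libraries each of RNA longer than 200 bp, which the series describes as biological triplicates. TRMT1L is a protein related to the tRNA methyltransferase TRMT1, and the comparison asks what its loss does to brain RNA. Strain, age, sex, the targeted allele and any treatment shared by both groups are not given in the sources used here. The labels do not tie each library to an animal, so p-values measure the spread between these libraries.

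Interneurons release GABA, the main inhibitory transmitter of the adult brain. GABA is made from glutamate by the glutamate decarboxylases and is loaded into synaptic vesicles by the vesicular transporter encoded by Slc32a1. The cells fall into classes that are told apart by a calcium-binding protein, by neuropeptides that they release beside GABA, or by reelin. Several of these genes are also used elsewhere: Gad1, Gad2 and Slc32a1 in striatal projection neurons and Purkinje cells, Pvalb in Purkinje cells, Reln in cerebellar granule cells, and Cck in cortical excitatory neurons. In whole brain RNA, fewer cells of a type and less RNA per cell cannot be told apart.

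Counts in genes ranged from 31201119 to 36145961 per library. Trmt1l, the targeted gene, had between 1034 and 1279 counts in the WT libraries and between 93 and 106 in the KO libraries, on the side that each label gives. The quasi-likelihood test of edgeR, with p-values adjusted by Benjamini-Hochberg over all genes tested, called 2 genes at 0.05 (0.00942%), Trmt1l and a feature inside it. Markers of cortical neurons, striatum, cerebellum, hypothalamus, oligodendrocytes, astrocytes and microglia were all detected; of 55 marker entries, Agrp alone was too low to be tested.

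The start regions of 5 members are printed to show which of them carry the cAMP response element, the site through which the activity-dependent factor CREB acts and for which the somatostatin gene is the textbook example. All 10 members had promoters in the RefSeq table (build GRCm38.p6). The 250 bases before each listed start were searched on both strands for the element TGACGTCA and its half-site TGACG, which lies inside the element; capitals mark matches and sequences read 5′ to 3′ on the strand of the gene. For Sst (chr16:23890874-23890903, minus strand) and Gad2 (chr2:22622281-22622310, plus strand) 30 bases are given, because GENCODE starts both genes further upstream. The others are the 100 bases before the start: Vip at chr10:5639118-5639217 (plus), Cck at chr9:121495695-121495794 (minus) and Slc32a1 at chr2:158610658-158610757 (plus).
Sst: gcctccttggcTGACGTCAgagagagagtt
Vip: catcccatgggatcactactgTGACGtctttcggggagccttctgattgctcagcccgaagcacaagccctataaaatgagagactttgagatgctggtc
Cck: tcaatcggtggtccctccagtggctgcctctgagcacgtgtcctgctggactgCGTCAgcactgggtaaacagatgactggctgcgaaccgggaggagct
Gad2: tccatttcccttcCGTCActctctcatctc
Slc32a1: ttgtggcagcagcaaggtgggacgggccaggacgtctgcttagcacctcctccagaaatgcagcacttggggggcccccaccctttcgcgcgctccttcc

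The whole element was found in Sst, beginning 48 bases before the start, and in 1.55% of the 32851 promoters in the table. The half-site was found in Vip 79 bases, in Cck 47 bases and in Gad2 33 bases before the start, and in 17.8% of all promoters; in Cck and Gad2 it is on the opposite strand. Slc32a1 held neither and is shown because it is the member whose libraries separated by genotype. A match is a description of letters and not of binding.

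Between KO and WT brain the interneuron genes differed little. None of the 10 passed at an adjusted p of 0.05, and the smallest edgeR adjusted p was 0.576, for Slc32a1. Of the 10, 1 had an unadjusted p-value under 0.05 against 7.92% of all genes tested, and 1 had groups that did not overlap against 14.4% of all genes, both being Slc32a1 and both shares near those of all genes. The log2 fold change (KO over WT) was above 0 for 3 members and below 0 for 7 (50.1% and 49.9% of all genes), with a median of -0.0043 beside 0.00013 over all genes tested. The widest 95% interval among the 9 others was that of Lhx6, from 0.830 to 1.18 times the WT level. That of Sst reached higher, from 0.924 to 1.26 times.

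**Figure D1:**
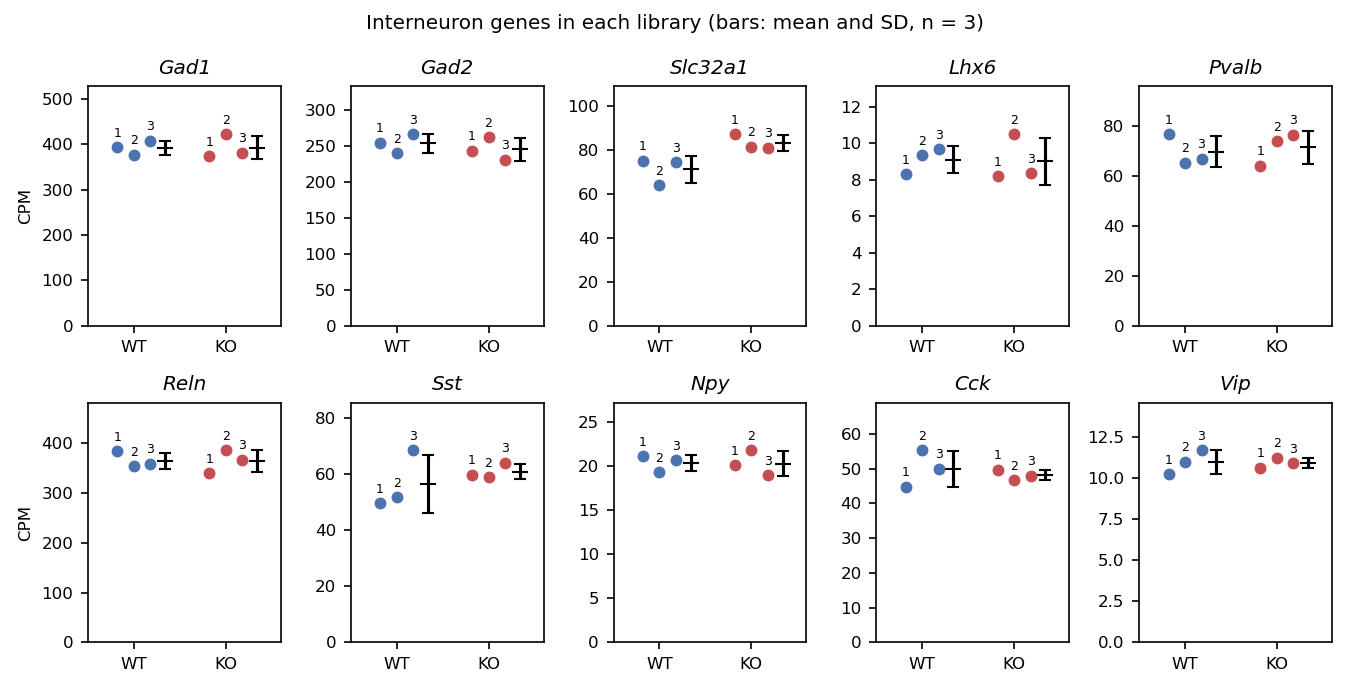
CPM (counts scaled to library size with TMM factors) of each gene in WT (blue) and KO (red) libraries, numbered by replicate, with the mean and SD of 3 libraries in black and all axes from 0. Slc32a1 is the gene whose KO libraries, from 80.8 to 87.1 CPM, all sit above its WT libraries, from 63.9 to 75.0 CPM.

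The enzymes of GABA synthesis were level between the genotypes. Gad1 (ENSMUSG00000070880.10, GRCm38 chromosome 2 from 70553072 to 70602014, plus strand) encodes GAD67, which supplies most of the cell's GABA. In replicate order, here and below, it stood at 393, 377 and 408 CPM in WT and at 374, 422 and 381 CPM in KO. KO libraries 1 and 2 held the lowest and the highest value, so the KO range enclosed the WT range. Its log2 fold change was -0.00031 (SE 0.0524; adjusted p = 0.9995 by edgeR), with a 95% interval from 0.923 to 1.08 times WT.

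Gad2 (ENSMUSG00000026787.3, chromosome 2 from 22622205 to 22693874, plus strand) encodes GAD65, the form found at nerve terminals. Its levels were 255, 240 and 267 CPM in WT and 243, 262 and 231 CPM in KO. The groups overlapped (log2 fold change -0.049, SE 0.0555, edgeR adjusted p = 0.850). Within a library, which needs no scaling, Gad2 counts were 0.648, 0.637 and 0.654 times the Gad1 counts in WT and 0.651, 0.620 and 0.606 times in KO. Its mean was 0.646 ± 0.00895 for WT and 0.626 ± 0.0229 for KO (SD, n = 3). KO library 1 fell within the WT range and KO libraries 2 and 3 below it; the two-sided exact permutation p was 0.3, in a design of 3 against 3 that cannot go below 0.1 and so could not have passed a threshold of 0.05.

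Slc32a1 (ENSMUSG00000037771.11, chromosome 2 from 158610767 to 158615748, plus strand) encodes VGAT, the transporter that fills vesicles with GABA and glycine. The WT libraries had 2729, 2003 and 2445 counts (75.0, 63.9 and 74.3 CPM) and the KO libraries 3028, 2738 and 2922 (87.1, 81.3 and 80.8 CPM). Every KO library lay above every WT library, as for 7.46% of all genes, and WT library 2 was the lowest of all. From WT to KO the mean went from 71.1 ± 6.22 to 83.1 ± 3.50 CPM (SD, n = 3), which is 1.17 times the WT level with a 95% interval from 1.06 to 1.29. On the log2 scale this was 0.23 (SE 0.0651). Its edgeR p-value was 0.00500 before adjustment, and the adjusted p of 0.576 missed the threshold. Without WT library 2 the log2 fold change was 0.16, and without a filter on low counts it was 0.23 with an adjusted p of 0.0131, in a fit that called 298 genes in all. An antisense gene, Gm14205, shares 697 exonic bases with Slc32a1, and counting by strand left between 2 and 8 reads per library on the strand opposite to the gene.

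As a share of Gad1 counts, a ratio added after the values were seen, Slc32a1 counts were 19.1%, 17.0% and 18.2% in WT libraries and 23.3%, 19.3% and 21.2% in KO libraries. The nearest libraries of the groups, WT library 1 and KO library 2, were 19.1% and 19.3%. In log2 units the ratios differed by 0.23 (two-sided exact permutation p = 0.1, the smallest that 3 against 3 can give). The summed level of 3 genes listed as olfactory bulb markers (Eomes, Th and Tbx21) was 23.2, 14.99 and 21.8 CPM in WT. It was 22.2, 34.7 and 21.9 CPM in KO, and all 3 log2 fold changes were above 0. The sum was lowest in WT library 2 and highest in KO library 2, and the other KO libraries lay inside its WT range. Of these genes only Tbx21 had every KO library above every WT library, as 7.46% of all genes did. Its group means were 0.667 CPM in WT and 1.30 CPM in KO, on 12 to 51 counts per library. The sum of 4 choroid plexus genes ranged from 294 to 346 CPM in WT and from 352 to 422 CPM in KO, again lowest in WT library 2, with all 4 fold changes above 0. The lists of 2 other cell types that use Slc32a1 had median log2 fold changes of -0.038 (7 striatal projection neuron markers) and -0.068 (4 Purkinje cell markers), and all 5 oligodendrocyte markers had fold changes below 0 (median -0.10). Of 8 GABAergic neuron markers, which include Gad1, Gad2 and Slc32a1, 5 had fold changes above 0 (median 0.14) and 0 passed the threshold over all genes. The log2 values were 0.29 for Dlx1, 0.26 for Dlx2, 0.29 for Dlx5 and -0.053 for Dlx6. Of 18 interneuron transcription factor genes, 11 had fold changes below 0 (median -0.019). The part of these lists in the Slc32a1 difference was not tested.

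Lhx6 (ENSMUSG00000026890.19, chromosome 2 from 36081953 to 36105408, minus strand) encodes a LIM homeodomain factor that parvalbumin and somatostatin interneurons need for their development. It had between 285 and 354 counts per library, at 8.30, 9.35 and 9.69 CPM in WT and 8.20, 10.5 and 8.36 CPM in KO. KO library 2 was the highest and the other 2 KO libraries were close to the lowest WT library. Its log2 fold change, -0.014 (SE 0.116, edgeR adjusted p = 0.986), had the largest standard error of the 10. A short RNA gene on the same strand, Gm27953, shares 104 exonic bases with Lhx6, and reads there are not counted for either.

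Pvalb (ENSMUSG00000005716.16, chromosome 15 from 78191114 to 78206400, minus strand) encodes parvalbumin, the calcium buffer of fast-spiking interneurons. Its levels were 76.6, 65.2 and 66.9 CPM in WT and 64.0, 73.8 and 76.3 CPM in KO, with WT library 1 and KO library 3 highest (log2 fold change 0.036, SE 0.0769, edgeR adjusted p = 0.933). The same 2 libraries had the highest summed level of 3 cerebellar granule cell markers, at 492 and 450 CPM against 374 to 446 CPM in the other 4. Of these 3 markers, only Cbln3 was highest in those 2 libraries. KO library 2 was highest for Gabra6 (123 CPM), and for Neurod1 it was above KO library 3 (69.0 against 65.3 CPM). WT library 1 and KO library 3 also had the highest sum of 4 Purkinje cell markers, at 468 and 415 CPM against 367 to 390 CPM. Each of those 4 markers was highest in these 2 libraries. The part of cerebellar tissue in the Pvalb values was not tested.

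Reln (ENSMUSG00000042453.14, chromosome 5 from 21884454 to 22344702, minus strand) encodes reelin, a large secreted glycoprotein that guides neuronal positioning and later acts on synapses. It stood at 383, 353 and 358 CPM in WT and at 340, 385 and 367 CPM in KO. As for Gad1, KO libraries 1 and 2 were the lowest and the highest of the 6. KO and WT differed by -0.0041 on the log2 scale (SE 0.0525, edgeR adjusted p = 0.989). The Reln locus spans 460249 bp and holds 3 other features on the same strand, none of which shares exonic bases with it.

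Among the peptides, Sst varied most between libraries. Sst (ENSMUSG00000004366.4, chromosome 16 from 23889573 to 23890958, minus strand) encodes somatostatin, the inhibitory peptide of interneurons that contact distal dendrites. It was at 49.5, 51.7 and 68.3 CPM in WT and at 59.8, 58.8 and 64.0 CPM in KO. WT library 3 was above every KO library while WT libraries 1 and 2 were below all of them, so that the WT mean of 56.5 CPM carried an SD of 10.3 and the KO mean of 60.8 CPM an SD of 2.76 (n = 3). KO exceeded WT by 0.11 on the log2 scale, about 1 SE (0.101; edgeR adjusted p = 0.819). The difference was 0.27 without WT library 3 (adjusted p = 0.661) and 0.020 without WT library 1 (adjusted p = 0.982).

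Npy (ENSMUSG00000029819.6, chromosome 6 from 49822710 to 49829507, plus strand) encodes neuropeptide Y, which dampens transmitter release. Its levels were 21.1, 19.3 and 20.7 CPM in WT and 20.1, 21.8 and 19.0 CPM in KO (log2 fold change -0.0066, SE 0.0726, edgeR adjusted p = 0.988). Vip (ENSMUSG00000019772.5, chromosome 10 from 5639218 to 5647617, plus strand) encodes vasoactive intestinal peptide, carried by interneurons that inhibit other interneurons. It had 373, 345 and 385 counts in WT and 370, 379 and 395 in KO, from 10.3 to 11.7 CPM over all libraries (log2 fold change -0.0045, SE 0.0858, edgeR adjusted p = 0.993). The KO range of Vip lay within its WT range, and that of Npy enclosed it.

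Cck (ENSMUSG00000032532.7, chromosome 9 from 121489824 to 121495694, minus strand) encodes cholecystokinin, the peptide of a class of basket cells. Its levels were 44.9, 55.2 and 50.02 CPM in WT and 49.7, 46.7 and 47.9 CPM in KO. The KO libraries fell within the WT range, whose ends were WT library 1 and WT library 2. KO and WT differed by -0.055 on the log2 scale (SE 0.0716, edgeR adjusted p = 0.874), and by 0.022 without WT library 2.

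**Figure D2:**
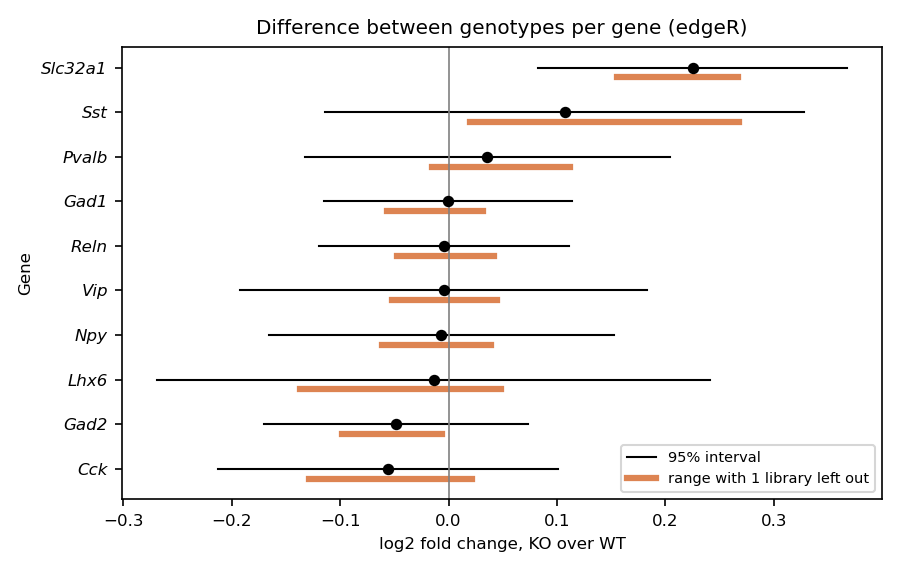
Log2 fold change of each gene, KO over WT, from edgeR (points), with its 95% interval (black lines) and the range obtained when 1 library at a time was left out (orange bars). The interval of Slc32a1, before any adjustment for the number of genes, runs from 0.083 to 0.37, and the intervals of the other 9 genes include 0.

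The levels of the members were set against each other per length, as CPM per kb of annotated exon. Sst was highest at 81.4 ± 9.92 CPM per kb (SD over 6 libraries), followed by Pvalb at 67.7 ± 5.53, Gad1 at 51.4 ± 2.52, Gad2 at 42.5 ± 2.36, Cck at 37.6 ± 2.74, Npy at 36.0 ± 1.89, Slc32a1 at 27.6 ± 2.86, Reln at 15.3 ± 0.746, Vip at 3.22 ± 0.146 and Lhx6 at 1.89 ± 0.196. On this scale the neighbours whose ranges over the libraries overlapped were Sst and Pvalb, Gad2 and Cck, and Cck and Npy. The order depended on the length used: per kb of the longest principal transcript, added once values were known, Gad1 came first at 117 CPM per kb. Cck (62.7) passed Gad2 (43.4) with no overlap between their libraries. Reln (31.1) passed Slc32a1 (27.6) with overlap, at 29.0 to 32.9 against 22.8 to 31.2 CPM per kb over the libraries. Gad1 has 8 annotated transcripts whose exons together cover 7639 bp, while its principal transcript has 3355 bp. Vip and Lhx6 were lowest by either length, at 7.17 and 2.71 CPM per kb of principal transcript.

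**Figure D3:**
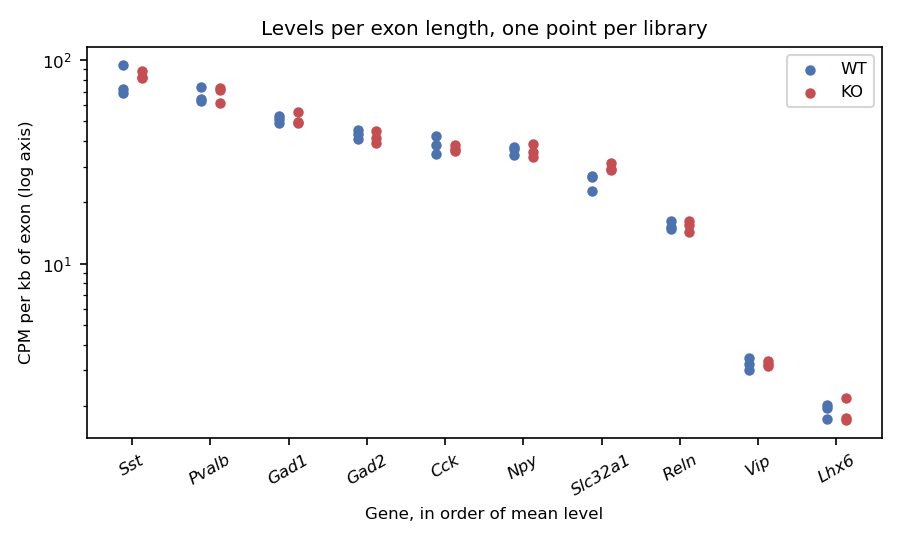
Level of each gene in CPM per kb of all annotated exons on a log axis, with 1 point per library (WT blue, KO red) and genes ordered by their mean. The levels run from 81.4 for Sst to 1.89 for Lhx6, and within a gene the spread between libraries is small beside the distance across the list.

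How steady each member was differed. Over all 6 libraries, so with any gap between genotypes included, the coefficient of variation was 12.2% for Sst, 10.4% for Slc32a1 and 10.4% for Lhx6, and it was 4.54% for Vip, 4.86% for Reln and 4.90% for Gad1. Within WT and within KO it was 8.75% and 4.21% for Slc32a1 and 18.2% and 4.54% for Sst. Counting alone gives 2.23% for Sst, 1.94% for Slc32a1, 5.68% for Lhx6 and 5.17% for Vip. Among the 2891 genes within 1.5-fold of the abundance of Sst, 97.0% had a lower coefficient of variation, and among the 2598 genes near Slc32a1 95.5% did, both over all 6 libraries. For Vip that share was 9.37% of 2648 genes, and its coefficient of variation within WT and within KO was 6.59% and 2.80%.

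The members did not move as 1 block from library to library. KO library 2 was above the 6-library mean for 9 of the 10 genes, Cck being the exception, and was the highest library for 4. KO library 1 was the lowest for 4. These counts were not made over all genes, so whether they are particular to the members was not tested. Of the 45 pairs of members, 29 had a positive correlation of log2 CPM over the 6 libraries. An unadjusted exact permutation p under 0.05 was found for 4 pairs and an adjusted one for 0. With 720 permutations a single pair could not have passed after adjustment over 45 pairs, so that 0 decides nothing. Pairs of other genes were not set beside these. Pvalb and Reln had Pearson's r = 0.87 (exact permutation p = 0.0292, adjusted p = 0.488) and Spearman's rho = 0.83 (exact permutation p = 0.0583, adjusted p = 0.656). Their r was 0.74 without the 2 libraries farthest from the median of Pvalb. Gad1 and Gad2 had r = 0.84 (exact permutation p = 0.0472, adjusted p = 0.488) and rho = 0.71 (exact permutation p = 0.136, adjusted p = 0.681), falling to r = 0.60 without the 2 farthest libraries. Cck ran against Pvalb, with r = -0.79 (exact permutation p = 0.0486, adjusted p = 0.488) and rho = -0.77 (exact permutation p = 0.103, adjusted p = 0.661), and r = -0.85 without the 2 farthest. The fourth of these pairs was Gad2 and Npy, at r = 0.88 (exact permutation p = 0.0306, adjusted p = 0.488) and rho = 0.83 (exact permutation p = 0.0583, adjusted p = 0.656), with r = 0.99 without the 2 farthest. Each gene shares its libraries and their scaling with the other.

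The protein-coding genes most like the mean of Gad1, Gad2 and Slc32a1 over the 6 libraries were Ankrd50, Txndc9, Arpc3, Zfp623 and Frzb, with Pearson's r between 0.978 and 0.989, chosen as the highest among 10161 genes of at least 10 CPM and so given as a description. Of the 6 other members above that level, Npy came nearest at r = 0.76, with 5.88% of the searched genes higher. Cck was lowest at r = -0.68, and Lhx6, at about 9 CPM, was not compared. The averaged genes did not share 1 pattern, as Slc32a1 had r = 0.11 with Gad1 and 0.0081 with Gad2.

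Genes that work beside the members were grouped in 5 lists, and none of their 87 genes passed at an edgeR adjusted p of 0.05. Unadjusted, 4.54% of all genes tested were higher in KO with a p-value under 0.05 and 3.38% were lower. Among 15 genes of GABA reuptake, breakdown and precursor supply, 2 were higher at that level and 0 lower, with a median log2 fold change of 0.066. They were Slc12a5, the KCC2 chloride exporter that makes GABA inhibitory, at 516 ± 8.26 CPM in WT against 557 ± 8.44 CPM in KO (SD over 3 libraries; log2 fold change 0.11, edgeR adjusted p = 0.579), and Slc6a12, a betaine and GABA transporter, at 2.41 and 3.18 CPM (edgeR adjusted p = 0.622). Every KO library was above every WT library for Slc12a5 and not for Slc6a12. The most abundant per length were Glul (glutamine synthetase), Slc12a5 and Slc6a11 (the astrocytic transporter GAT3), with log2 fold changes of 0.073, 0.11 and 0.0090.

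In the list of interneuron transcription factors, whose 18 genes include the long noncoding RNA Dlx6os1, 0 were higher and 2 lower at an unadjusted p under 0.05, and the median log2 fold change was -0.019. Satb1, a chromatin organiser that acts downstream of Lhx6, was at 106 ± 5.70 CPM in WT and 94.0 ± 1.84 CPM in KO (log2 fold change -0.17, edgeR adjusted p = 0.576), and Zeb2, also expressed in glia, at 305 ± 12.9 and 281 ± 8.28 CPM (-0.12, adjusted p = 0.595; SD, n = 3). Both had every KO library below every WT library, as 6.97% of all genes did. Zeb2, Prox1 (-0.078) and Dlx6os1 (0.074) were the most abundant per length.

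Among 26 other markers of interneuron classes, 2 were higher and 3 lower at an unadjusted p under 0.05, and the median was -0.061. Calb2 (calretinin) was at 84.6 CPM in WT and 94.5 CPM in KO (log2 fold change 0.16, edgeR adjusted p = 0.622). Cnr1, the cannabinoid receptor carried by Cck basket cells, was at 247 and 217 CPM, with a log2 fold change of -0.18 (adjusted p = 0.576). The other 3 were scarce: Cox6a2 (0.44), Chodl (-0.51) and Nxph2 (-0.57) lay between 0.968 and 1.93 CPM in their group means. Calb2, Cnr1 and Kcnc1 (0.058), which encodes a channel of fast-spiking cells, were the most abundant per length.

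Of 16 receptors and targets of the peptides and reelin, 0 were higher and 1 was lower at an unadjusted p under 0.05. This was Vldlr, a reelin receptor, at 146 ± 7.08 CPM in WT against 134 ± 5.59 CPM in KO (SD, n = 3; log2 fold change -0.12, edgeR adjusted p = 0.614). The nearest libraries of the groups, WT library 3 and KO library 1, were level at 139.87 and 139.86 CPM. The other reelin receptor Lrp8 had a log2 fold change of 0.10 and the reelin signalling adaptor Dab1 one of -0.0063. Adcyap1r1, a receptor for the VIP-related peptide PACAP, was the most abundant per length (0.060). The list's median was 0.012.

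Of 12 genes of peptide processing and dense-core vesicles, 1 was higher and 0 were lower at an unadjusted p under 0.05. Vgf, a neuronal secretory protein whose gene responds to activity, averaged 59.2 ± 8.90 CPM in WT against 80.9 ± 7.98 CPM in KO (SD, n = 3; log2 fold change 0.45, SE 0.0982, edgeR adjusted p = 0.550), with every KO library above every WT library. The most abundant per length, Cpe, Chgb and Scg2, which encode a carboxypeptidase and granins of the vesicle core, had log2 fold changes of -0.0059, 0.060 and 0.090. The list's median was 0.019.

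**Figure D4:**
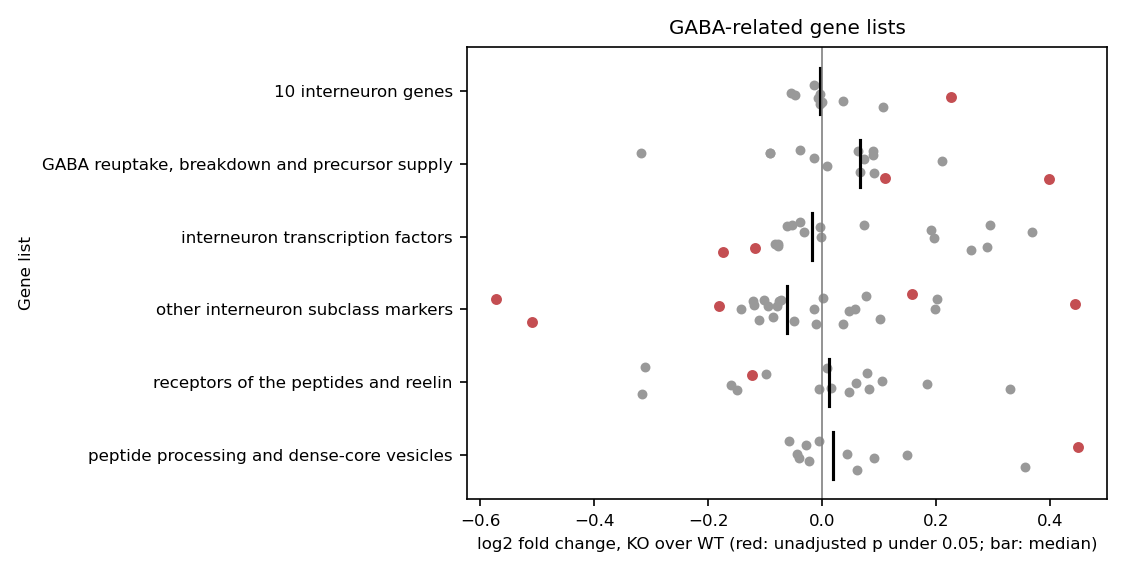
Log2 fold change, KO over WT, of the genes tested in the 10 interneuron genes and 5 related lists, with genes of unadjusted p under 0.05 in red and the median of each list as a black bar; vertical scatter within a list has no meaning. The medians lie between -0.061 and 0.066, and 0 genes had an adjusted p under 0.05.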

How the data were processed

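Per the layout of the deposited files, the authors' tables hold raw read counts per gene in 3 columns (unstranded and each strand), 1 table per library; the submitters' processing notes name STAR 2.7.0f and cutadapt 1.9.1, and the genome build and annotation are not given in the sources used here. All 55450 gene IDs matched GENCODE M21 (GRCm38) by version, which gave names, positions and exon lengths. The last column was used, as it held at least 94.6% of stranded counts in every library; reads in no single gene (55.1% to 57.6% of mapped reads) stayed out of library sizes and tests. In this counting, reads in 2 genes of 1 strand or at several places are lost.

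Counts were filtered (filterByExpr), scaled (TMM) and tested with edgeR 4.0.16 in R 4.3.3 by the quasi-likelihood test on genotype alone, adjusted by Benjamini-Hochberg over 21237 genes; the test was checked on simulated data. The SE is the size of a log2 fold change divided by the square root of F. Alternatives used DESeq2 1.42.0, limma 3.58.1 (voom), other scalings, filters and the unstranded column, a replicate block, and leaving out each library. The 10 members and the lists were chosen with earlier results of these data known. Besides the members and Trmt1l, the rule names the 3 genes of each list highest per length, those with an adjusted p under 0.05, up to 5 per list with an unadjusted p under 0.05, and 5 genes alike in pattern; Lrp8 and the marker genes (Dlx genes too) were named after their values were seen. Counts of this depth give a counting error between 0.863% (Gad1) and 5.68% (Lhx6).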

Additional observations from a re-analysis of the deposited data

How the results depend on the processing

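Over 14 alternatives none of the 10 interneuron genes passed the threshold, except that without a filter on low counts 1 did, Slc32a1, at 0.23. DESeq2 gave no adjusted p for Lhx6 and Vip, so 8 of the 10 could pass there. The log2 fold change of Slc32a1 lay between 0.16 and 0.27 with edgeR, limma-voom and DESeq2 adjusted p-values from 0.0131 to 0.861, and that of Sst between 0.020 and 0.27. Gad2 stayed below 0 (from -0.099 to -0.0060). The signs of the other 7, all near 0, turned in some settings. Gad1 was 0.0039 with the unstranded column and 0.0050 without a filter, where Reln was 0.0012 and Vip 0.0010. With 1 library left out, the ranges were -0.057 to 0.032 for Gad1, -0.14 to 0.049 for Lhx6, -0.015 to 0.11 for Pvalb, -0.047 to 0.042 for Reln, -0.061 to 0.040 for Npy, -0.13 to 0.022 for Cck and -0.052 to 0.044 for Vip. The difference in the log2 ratio of Gad2 to Gad1 ranged from -0.076 to -0.025, and that of Slc32a1 to Gad1, added after seeing the data, from 0.16 to 0.30. Genes called over the whole transcriptome numbered 298 without a filter, 25 with the DESeq2 Wald test and from 2 to 5 with 1 library left out (5 without KO library 3). Total-count scaling moved the median of all genes to -0.0099. The replicate block gave 4 genes over the transcriptome and 0 members. Same-numbered libraries correlated in their deviations at 0.040, -0.031 and -0.058, so no pairing was evident, and the labels do not say whether there was one. The 95% intervals are not adjusted for the number of genes, so a difference larger than their half-width, such as that of Slc32a1, could still miss the threshold.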
